A study of Mus musculus with 2 samples.

Results

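The genes Ccl17, Ccl22, Ccr4, Ccr8 and Ccr7 form one branch of the chemokine system, and their UMI rows were read by symbol from the deposited matrices, which gave 5 of 56941 features. Dendritic cells secrete CCL17 and CCL22, both of which act through CCR4, a receptor carried by regulatory and type 2 helper T cells. CCR8 marks activated regulatory T cells in tumors and binds CCL1 and, in mice, CCL8. CCR7 guides mature dendritic cells and naive lymphocytes to lymph nodes along CCL19 and CCL21. The identifiers are ENSMUSG00000031780 for Ccl17, ENSMUSG00000031779 for Ccl22, ENSMUSG00000047898 for Ccr4, ENSMUSG00000042262 for Ccr8 and ENSMUSG00000037944 for Ccr7.

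CD45+ cells were isolated from liver metastases of C57BL/6 mice, aged 6 to 8 weeks, 2 weeks after MC38-LM3b cells were injected into the spleen. MC38-LM3b is a liver-metastatic derivative of the mouse colorectal cancer line MC38, and it carried a scrambled hairpin (shScramble, Ctrl) or a hairpin against SLAMF3 (shSLAMF3, KD). The KD line carried 1 hairpin, and the host immune cells carried none. Each group had 1 droplet 3' RNA library, and each library pooled 3 mice. No replicate error can therefore be given, no test was made, and all intervals are 95% intervals that cover counting error only.

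The Ctrl library held 67207234 UMIs (molecular barcodes, by which each captured RNA is counted once) in 10416 cells, and the KD library held 64444715 UMIs in 10943 cells. Filtering kept 9814 Ctrl and 10185 KD cells, whose median depths were 5411.5 and 4989 UMIs. The libraries shared 24 of the kept barcodes. Ly9 (ENSMUSG00000004707), which encodes SLAMF3, had 605 UMIs in Ctrl T cells and 401 in KD T cells. These were 23.2 and 30.2 CPM (UMIs per 1000000 of the class), so the level was higher in KD T cells. T cells are host cells, so the values do not check the knockdown. Conventional dendritic cells (DCs) numbered 383 in Ctrl and 580 in KD, which was 4.03% and 6.14% of immune cells. There were 4094 and 2998 macrophages, and 3487 and 2137 T cells. All 14 DC markers, all 15 macrophage markers and all 11 T cell markers were detected in their own class in both libraries. Granulocyte markers were higher in the KD cells of all 3 classes. Their summed level was 395 CPM in Ctrl and 999.6 CPM in KD DCs, with Ly6g at 0 in the former, and Retnlg and S100a9 were among the DC genes with the highest ratios. It was 312 and 1167 CPM in macrophages, and 95.1 and 844 CPM in T cells. In mature DC-like cells, described below, it was 141 and 171 CPM. The part of these transcripts in the results was not tested.

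Ccl22 and Ccl17 are neighbours on mouse chromosome 8, with Cx3cl1 between them, and their start sites lie 64769 bases apart in GRCm38. The 250 bases before each start are shown because these neighbours differed in their KD over Ctrl ratios, and both are RefSeq sequence of GRCm38.p6, whereas the count files use GRCm39. Ccl22 is at chr8:94745434-94745683 and Ccl17 at chr8:94810203-94810452, both on the plus strand. Capitals mark matches to 3 motifs searched on both strands, none of which overlapped here.
Ccl22: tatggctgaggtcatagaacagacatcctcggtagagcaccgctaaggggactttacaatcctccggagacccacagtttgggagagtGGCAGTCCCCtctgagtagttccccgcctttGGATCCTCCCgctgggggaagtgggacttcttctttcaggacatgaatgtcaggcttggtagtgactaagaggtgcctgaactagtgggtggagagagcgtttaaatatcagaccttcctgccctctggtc
Ccl17: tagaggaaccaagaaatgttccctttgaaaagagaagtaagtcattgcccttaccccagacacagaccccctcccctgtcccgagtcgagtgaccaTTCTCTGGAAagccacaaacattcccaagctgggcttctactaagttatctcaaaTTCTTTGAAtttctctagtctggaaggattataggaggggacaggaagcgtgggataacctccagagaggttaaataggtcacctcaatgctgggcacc
The capitals before Ccl22 are 2 matches to the NF-kB motif, GGG and CC with 5 bases between, both in the orientation GG, 5 bases, CCC. This motif is in 45.8% of the 32851 promoter windows of the same length. The capitals before Ccl17 are 1 match to the STAT6 motif, TTC and GAA with 4 bases between, found in 5.85% of windows, and 1 match to the STAT5 motif, the same letters with 3 bases between, found in 7.02%. These are letter matches in short windows and say nothing of binding.

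Ccl17 had its highest level in DCs and was 2.70-fold higher in KD DCs. Ctrl DCs had 141 Ccl17 UMIs (119 to 166), or 51.2 CPM (43.1 to 60.4), and KD DCs had 724 (672 to 779), or 138 CPM (128 to 148). The log2 ratio of CPM, KD over Ctrl, was 1.43 (1.17 to 1.70), and the intervals of the levels did not overlap. It was 2.19 (1.87 to 2.54) without likely doublets and 2.24 (1.86 to 2.63) when each cell was classed on its own by markers, called single-cell classes below. Among the 8989 genes with at least 50 UMIs in DCs, this ratio ranked 74 from the highest. Of the 3 members with that many UMIs, Ccl17 alone reached a 2-fold difference, which 1.8% of the tested genes reached upward and 1.07% downward. DCs held 88.7% (82.7% to 93.2%) of all Ccl17 UMIs of the Ctrl library and 89.9% (87.6% to 91.9%) of those of the KD library. With single-cell classes these shares were lower, 40.3% (32.6% to 48.3%) and 69.1% (65.7% to 72.2%). The DC sub-cluster led by Lpl and C1qa, with 80 Ctrl and 113 KD cells, is part of the cluster-based shares. Its macrophage marker level exceeded its DC marker level, as given below.

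**Figure D1:**
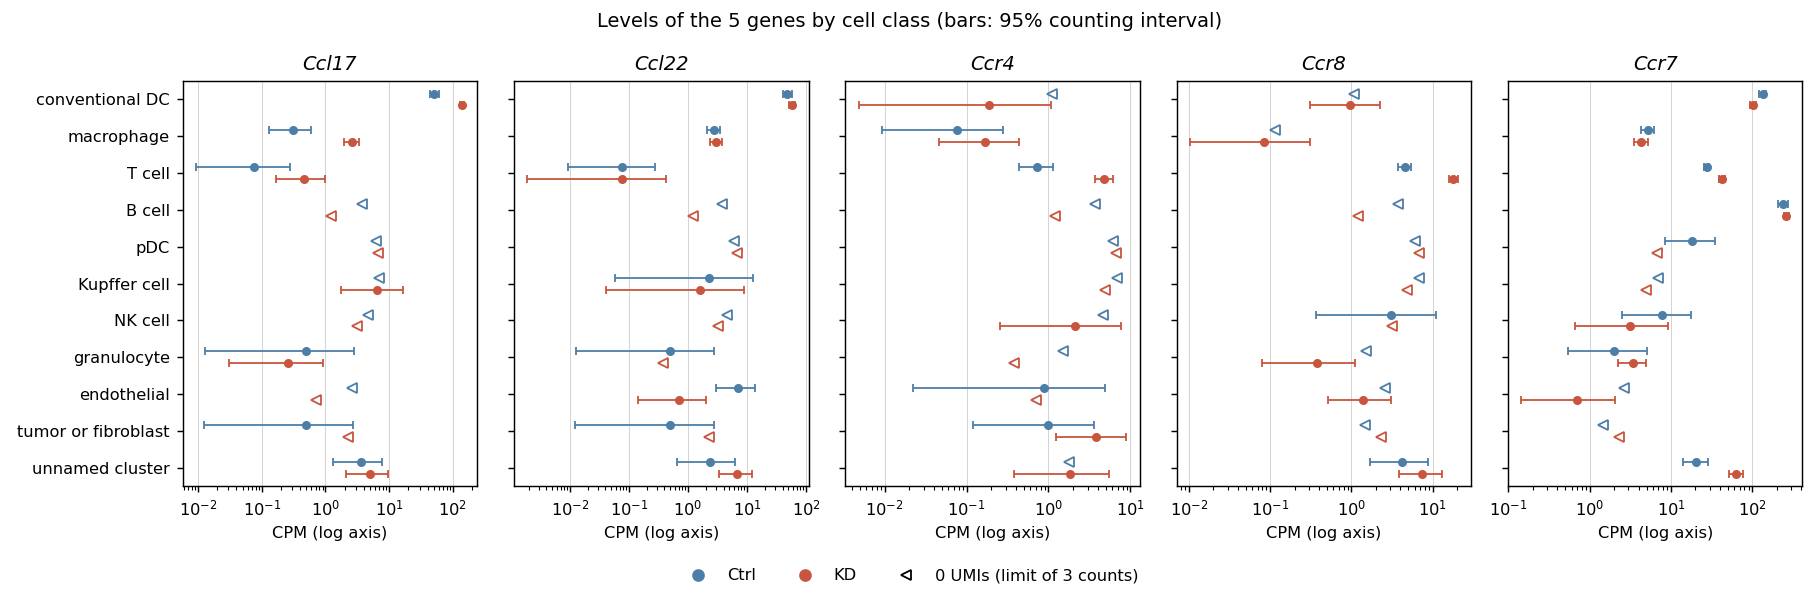
CPM of each gene on a log axis by cell class, with Ctrl and KD as separate points, bars for 95% counting intervals, and open triangles for classes without a UMI, placed at the limit of 3 counts. Ccl17 and Ccl22 were highest in conventional DCs, Ccr8 in T cells and Ccr7 in B cells.

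More KD than Ctrl DCs carried the transcript. At least 1 Ccl17 UMI was found in 25 of 383 Ctrl DCs (6.53%, 4.27% to 9.49%) and 102 of 580 KD DCs (17.6%, 14.6% to 20.9%). The KD cells were deeper, with a median of 8407.5 UMIs against 6410, so each cell was also thinned to a depth of 1500 UMIs, and 23 shallower DCs of Ctrl and 9 of KD dropped out. After thinning, 11 of 360 Ctrl DCs (3.06%, 1.54% to 5.40%) and 41 of 571 KD DCs (7.18%, 5.20% to 9.62%) had a Ccl17 UMI, and these intervals overlap slightly. T cells, which should lack the gene, had a UMI in 2 of 3487 Ctrl and 4 of 2137 KD cells, at medians of 6146 and 4886 UMIs. After thinning they had 0 of 3264 and 0 of 2049, which allows shares of up to 0.0919% and 0.146%.

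Ccl17 UMIs were concentrated in few cells. The 5 highest cells held 65.2% of the Ctrl and 45.6% of the KD total, and single cells reached 30 and 102 UMIs. Without the highest cell of each library the log2 ratio was 1.55 (1.26 to 1.86). The interval from pooled UMIs therefore understates the uncertainty wherever few cells contribute.

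**Figure D2:**
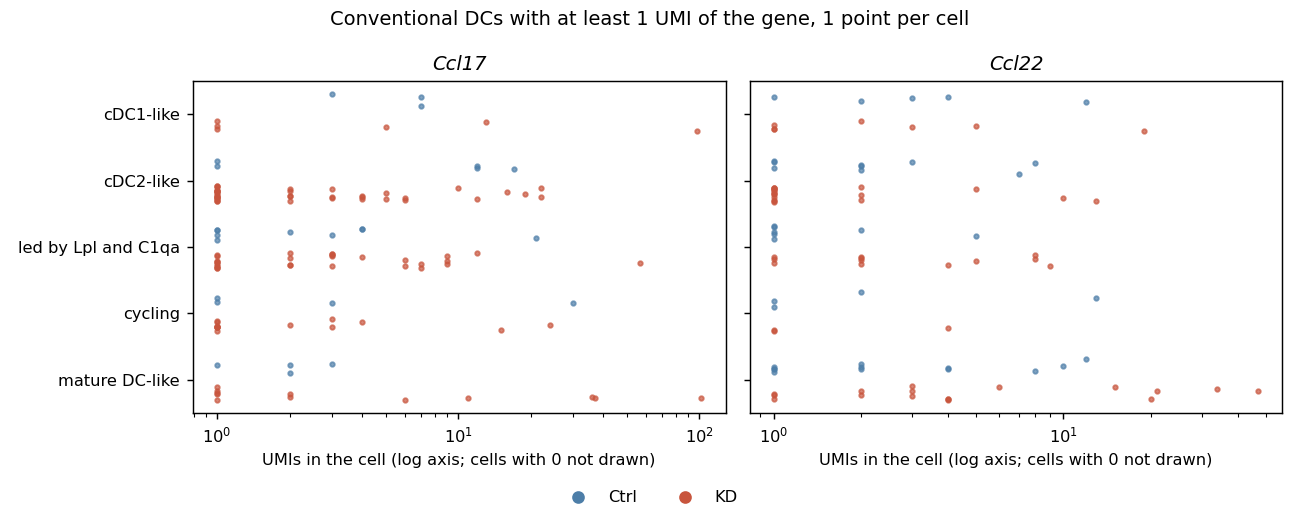
UMIs of Ccl17 (left) and Ccl22 (right) in each conventional DC with at least 1, on a log axis, by sub-cluster and library. KD Ccl17 points are numerous among cDC2-like cells and those led by Lpl and C1qa, whereas 1 cell of 98 UMIs dominates cDC1-like cells and 1 cell of 102 UMIs the mature DC-like cells.

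Sub-clusters of DCs differed in how Ccl17 was distributed. In cDC2-like cells, the type that presents antigen to CD4+ T cells, it was at 46.4 CPM (33.6 to 62.5) in Ctrl and 86.3 CPM (73.9 to 100.2) in KD, a log2 ratio of 0.89 (0.41 to 1.41). The cells with a Ccl17 UMI were 5 of 146 in Ctrl (3.42%) and 39 of 259 in KD (15.1%). In the sub-cluster led by Lpl and C1qa, whose leading genes are macrophage genes, the summed level of macrophage markers was 3221 CPM in Ctrl and 4067 CPM in KD, against 1148 and 999.99 CPM for DC markers. There Ccl17 was at 72.6 CPM (51.4 to 99.7) and 147 CPM (125 to 172), a log2 ratio of 1.02 (0.50 to 1.57). Both sub-clusters kept their direction without the highest cell of each library, at 1.42 and 1.52.

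Single cells set the values of 2 other sub-clusters. In cDC1-like cells, which cross-present antigen to CD8+ T cells, Ccl17 was at 35.2 CPM in Ctrl and 121 CPM in KD, a log2 ratio of 1.78 (1.04 to 2.60). However, 1 KD cell held 98 of the 119 UMIs, and without the highest cell of each library the ratio was 0.02 (-1.13 to 1.27). Cycling DCs had 63.3 CPM and 64.4 CPM, a log2 ratio of 0.02 (-0.60 to 0.67), with 30 of the 35 Ctrl UMIs in 1 cell, and without the highest cells the ratio was 2.06 (0.70 to 3.77).

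**Figure D3:**
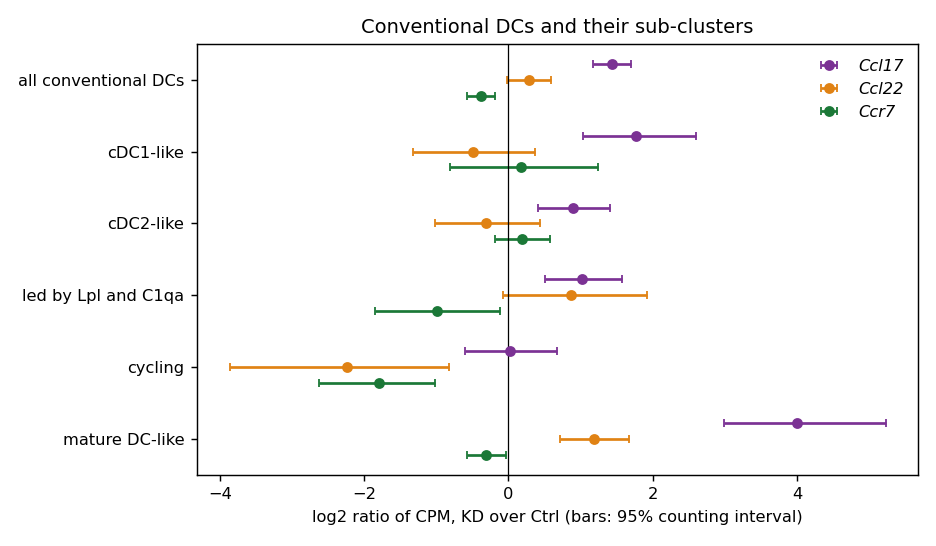
Log2 ratio of CPM, KD over Ctrl, of Ccl17, Ccl22 and Ccr7 in all conventional DCs and 5 sub-clusters, with bars for 95% counting intervals. The Ccl17 interval lies above 0 in every row except cycling DCs, and Ccl22 lies above 0 in mature DC-like cells and below 0 in cycling DCs.

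Mature DC-like cells, the Fscn1+ cells that have switched to migration, numbered 27 of 383 Ctrl DCs (7.05%, 4.70% to 10.1%) and 33 of 580 KD DCs (5.69%, 3.95% to 7.90%). The KD minus Ctrl share was -1.36 points (-4.86 to 1.87), but 2.64 points (-4.30 to 9.33) with single-cell classes. They had 8 Ccl17 UMIs in Ctrl, or 51.2 CPM (22.1 to 100.8), and 201 in KD, or 818 CPM (709 to 939). The log2 ratio was 4.0 (2.99 to 5.23), the highest of the 1247 genes tested in these cells, of which 2.57% were at least 2-fold higher in KD and 4.73% at least 2-fold lower. A single KD cell held 50.7% of the UMIs, and without the highest cell of each library the ratio was 3.67 (2.40 to 5.32). The summed level of macrophage markers in mature DC-like cells was 1216 CPM in Ctrl and 167 CPM in KD. For DC markers it was 4216 and 5095 CPM. The part of this difference in the Ccl17 ratio was not tested. The size of the Ccl17 ratio depended on which cells were counted as mature. It was 2.70 with a stricter cell filter, 2.91 without likely doublets, 2.79 at resolution 1.0, 2.74 with chemokine genes kept in the clustering or with another numerical kernel, and 1.56 (1.10 to 2.04) with single-cell classes. A Ccl17 UMI was found in 4 of 27 Ctrl cells (14.8%, 4.19% to 33.7%) and 12 of 33 KD cells (36.4%, 20.4% to 54.9%), and those intervals overlap. After thinning there were 2 of 23 and 9 of 32 cells. Without this sub-cluster the log2 ratio over DCs was 1.03 (0.75 to 1.32).

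The other DC sub-cluster, led by Serpinb1a and Txn1, had 36 Ctrl and 9 KD cells. Ccl17 was at 0 UMIs there in Ctrl and at 14 in KD, of which 11 were in 1 cell.

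Ccl17 was far lower in macrophages than in DCs but was also higher in KD. Macrophages had 8 Ccl17 UMIs in Ctrl, or 0.306 CPM (0.132 to 0.603), and 61 in KD, or 2.59 CPM (1.98 to 3.33), a log2 ratio of 3.08 (2.01 to 4.36). After thinning it was 2.21 (-0.19 to 5.51), an interval that includes 0. With single-cell classes it was 1.96 (1.49 to 2.45), but those macrophages included 136 cells of the DC clusters. That value is therefore not an independent check of the macrophage clusters. The ratio of 3.08 ranked 25 from the highest among 13316 genes, of which 2.37% were at least 2-fold higher and 2.87% at least 2-fold lower. The UMIs came from 6 of 4094 Ctrl cells (0.147%, 0.0538% to 0.319%) and 24 of 2998 KD cells (0.801%, 0.514% to 1.19%). After thinning, 1 of 3801 and 7 of 2882 cells had a Ccl17 UMI, so this difference was close to the limit that depth allows. The summed level of DC markers in macrophages was 348 CPM in Ctrl and 286 CPM in KD, with all 14 markers detected. Among the 24 KD macrophages with Ccl17, 0 had a UMI of Flt3 and 1 (4.17%) had a UMI of Zbtb46, both DC genes. In KD macrophages without Ccl17 the shares were 2.42% and 1.31%, so 24 cells are too few to show a difference. Ccr7, which mature DCs carry, had a UMI in 4 of these 24 cells (16.7%), against 1.75% of KD macrophages without Ccl17, and in 2 of the 6 Ctrl cells (33.3%), against 1.86%.

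Macrophages with high C1q genes (C1q TAM-like) had 0 Ccl17 UMIs in 852 Ctrl cells, which allows up to 0.408 CPM, and 32 in 1090 KD cells, or 3.31 CPM (2.26 to 4.67). The KD level was 8.11 times this limit of 3 counts, and the exact interval of the ratio began at 6.22-fold. The macrophage sub-cluster led by Ltc4s and Cxcl3, with 15 Ctrl and 529 KD cells, held 16 KD UMIs, 13 of them in 1 cell. Inflammatory TAM-like cells, marked by Nos2 and Il1a, had 4 Ccl17 UMIs in Ctrl and 6 in KD.

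Ccl22, the other CCR4 ligand, differed less between the libraries. Ctrl DCs had 132 Ccl22 UMIs, or 47.9 CPM (40.1 to 56.8), and KD DCs had 306, or 58.4 CPM (52.0 to 65.3). The log2 ratio was 0.28 (-0.01 to 0.59), which ranked 1720 of 8989, and its interval includes 0. Without likely doublets it was 0.56 (0.24 to 0.90). A Ccl22 UMI was found in 41 of 383 Ctrl DCs (10.7%, 7.79% to 14.2%) and 60 of 580 KD DCs (10.3%, 7.99% to 13.1%), and after thinning in 5.56% and 5.60%. B cells had 0 of 271 and 0 of 871 cells with a UMI, which allows up to 1.11% and 0.344%. Their medians of 2559 and 2583 UMIs were below those of DCs, so this is a weak floor for the DC shares. DCs held 60.0% (53.2% to 66.5%) of the Ctrl library's Ccl22 UMIs and 78.1% (73.6% to 82.1%) of those of the KD library. Both shares include the sub-cluster led by Lpl and C1qa, in which macrophage markers exceeded DC markers.

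Mature DC-like cells had the highest Ccl22 level of the DC sub-clusters. They held 21.8% of the library's Ccl22 UMIs in Ctrl and 43.6% in KD, against 32.3% and 17.9% for macrophages. They had 48 Ccl22 UMIs in Ctrl, or 307 CPM (226 to 407), and 171 in KD, or 696 CPM (595 to 808), a log2 ratio of 1.18 (0.71 to 1.67). This ranked 20 of the 1247 tested genes. With single-cell classes the ratio was 0.26 (-0.12 to 0.64), and after thinning it was 0.90 (-0.20 to 2.12), and both intervals include 0. The cells with a Ccl22 UMI were 12 of 27 in Ctrl (44.4%) and 17 of 33 in KD (51.5%). The KD cells were deeper, at a median of 7035 UMIs against 4992, and depth can raise both counts and shares. The Ccl22 UMIs were concentrated, with 79.2% of the Ctrl and 80.1% of the KD total in the 5 highest cells. Without the highest cell of each library the ratio was 1.14 (0.60 to 1.72). Outside mature DC-like cells the Ccl22 ratio over DCs was -0.26 (-0.66 to 0.15). In cycling DCs there were 17 UMIs in Ctrl and 6 in KD, a log2 ratio of -2.23 (-3.86 to -0.82), but 13 of the 17 were in 1 cell. The ratio was -0.49 (-1.32 to 0.36) in cDC1-like cells, -0.31 (-1.02 to 0.43) in cDC2-like cells and 0.86 (-0.08 to 1.92) in those led by Lpl and C1qa.

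Ccl22 in macrophages was 2.71 CPM (2.12 to 3.42) in Ctrl and 2.97 CPM (2.32 to 3.75) in KD, a log2 ratio of 0.13 (-0.37 to 0.63). It was 0.98 (-0.27 to 2.30) after thinning and 0.47 (0.02 to 0.93) with single-cell classes, whose macrophages included 136 cells of the DC clusters. In the macrophage clusters the UMIs numbered 71 and 70. Inflammatory TAM-like cells had 32 UMIs in Ctrl and 19 in KD, a log2 ratio of 1.22 (0.32 to 2.09), but 1 cell held 16 of the former and 1 held 15 of the latter. T cells had 2 and 1.

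The pair was often found in the same DCs. Among DCs with a Ccl22 UMI, 14 of 41 in Ctrl (34.1%) and 29 of 60 in KD (48.3%) also had Ccl17, against 3.22% and 14.04% of those without Ccl22. Among DCs with a Ccl17 UMI, however, 56.0% in Ctrl and 28.4% in KD also had Ccl22. The neighbours of the pair gave log2 ratios in DCs of 1.19 (-0.68 to 3.64) for Cx3cl1, on 3 and 13 UMIs, and 0.02 (-0.34 to 0.40) for Ciapin1, on 95 and 184 UMIs.

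**Figure D4:**
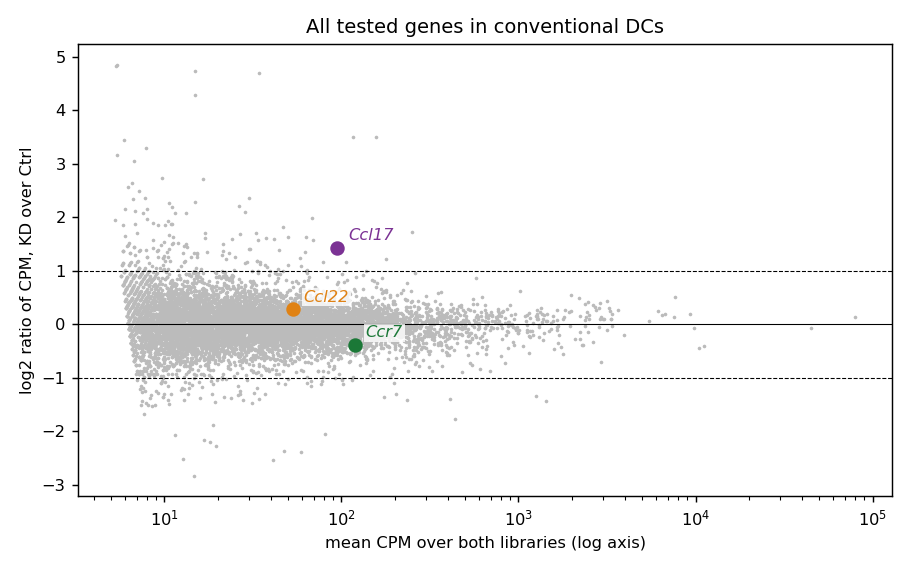
Log2 ratio of CPM, KD over Ctrl, against the mean CPM of both libraries (log axis) for the 8989 genes tested in conventional DCs, with dashed lines at 2-fold. Ccl17 lies above the upper line, at 1.43, whereas Ccl22 and Ccr7 lie between the lines.

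Genes known to induce Ccl17 and Ccl22 were described from a fixed list of receptors and signalling genes. All 16 were tested in DCs and 0 reached a 2-fold difference, which 1.8% of all genes tested reached upward and 1.07% downward. The median log2 ratio of the list was -0.05, against -0.0019 over all genes. The highest was Il13ra1, a chain of the IL-13 receptor, at 0.65 (0.35 to 0.95), and the lowest was Il4ra, the IL-4 receptor chain, at -0.73 (-0.96 to -0.50). Counted by intervals, 5 lay above 0 and 3 below, against 12.8% and 13.5% of all genes tested. In macrophages the list also had 0 genes past 2-fold, from Irf4 at 0.79 to Cd40 at -0.96. Of all genes tested there, 2.37% were at least 2-fold higher and 2.87% at least 2-fold lower.

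Among the inducing cytokines, 3 of 6 were tested in T cells and 2 were at least 2-fold higher in KD, as were 3.46% of all genes tested there, while 1.68% were at least 2-fold lower. The highest was Il4 at 2.88 (2.40 to 3.39), on 45 UMIs in Ctrl, 32 of them in 1 cell, and 169 in KD. The lowest was Csf2, which encodes GM-CSF, at 0.62 (0.29 to 0.94). Of the KD Il4 UMIs in T cells, 137 were in the sub-cluster led by Il4 and Zbtb16, which had 5 Ctrl and 95 KD cells.

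Ccr4, the receptor for both ligands, was scarce but more frequent in KD T cells. T cells had 19 Ccr4 UMIs in Ctrl, or 0.728 CPM (0.438 to 1.14), and 63 in KD, or 4.74 CPM (3.64 to 6.07), a log2 ratio of 2.70 (1.95 to 3.53). This ranked 31 from the highest among 12967 genes. Of the 3 members tested in T cells, 2 (Ccr4 and Ccr8) were at least 2-fold higher in KD, against the same 3.46% of all genes tested. The T cells with a Ccr4 UMI were 16 of 3487 in Ctrl (0.459%, 0.262% to 0.744%) and 48 of 2137 in KD (2.25%, 1.66% to 2.97%). After thinning they were 4 of 3264 (0.123%) and 21 of 2049 (1.02%). Macrophages, which should lack the gene, had 1 of 4094 and 2 of 2998 cells with a UMI at medians of 5570.5 and 7426.5 UMIs. Thinned, they had 0 of 3801 and 0 of 2882, which allows up to 0.0789% and 0.104%.

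Ccr4 lay mostly in CD4+ sub-clusters, which took a larger share of KD T cells. CD4 conventional-like cells made up 3.67% of the Ctrl and 15.6% of the KD T cells. For Treg-like cells these shares were 2.27% (1.80% to 2.82%) and 5.71% (4.76% to 6.78%), a difference of 3.44 points that was 1.85 points with single-cell classes. Within CD4 conventional-like cells Ccr4 was at 11.6 CPM (4.24 to 25.2) in Ctrl and 19.5 CPM (13.1 to 28.0) in KD, a log2 ratio of 0.75 (-0.54 to 2.31). Within Treg-like cells it was at 12.7 CPM on 7 UMIs and 12.8 CPM on 9 UMIs, a log2 ratio of 0.02 (-1.58 to 1.68). A difference within either was not detectable at this depth. With sub-clusters weighted as in Ctrl, the log2 ratio over T cells was 1.33 in place of 2.70. Gamma-delta T-like cells had 1 UMI in 22 Ctrl cells and 7 in 14 KD cells, 4 of them in 1 cell. The other named T cell sub-clusters had at most 5 Ccr4 UMIs in either library, and DCs had 0 and 1. Tumor or fibroblast cells had 2 Ccr4 UMIs in Ctrl, or 0.985 CPM, and 5 in KD, or 3.83 CPM. Their levels were not separable from those of T cells at these counts.

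**Figure D5:**
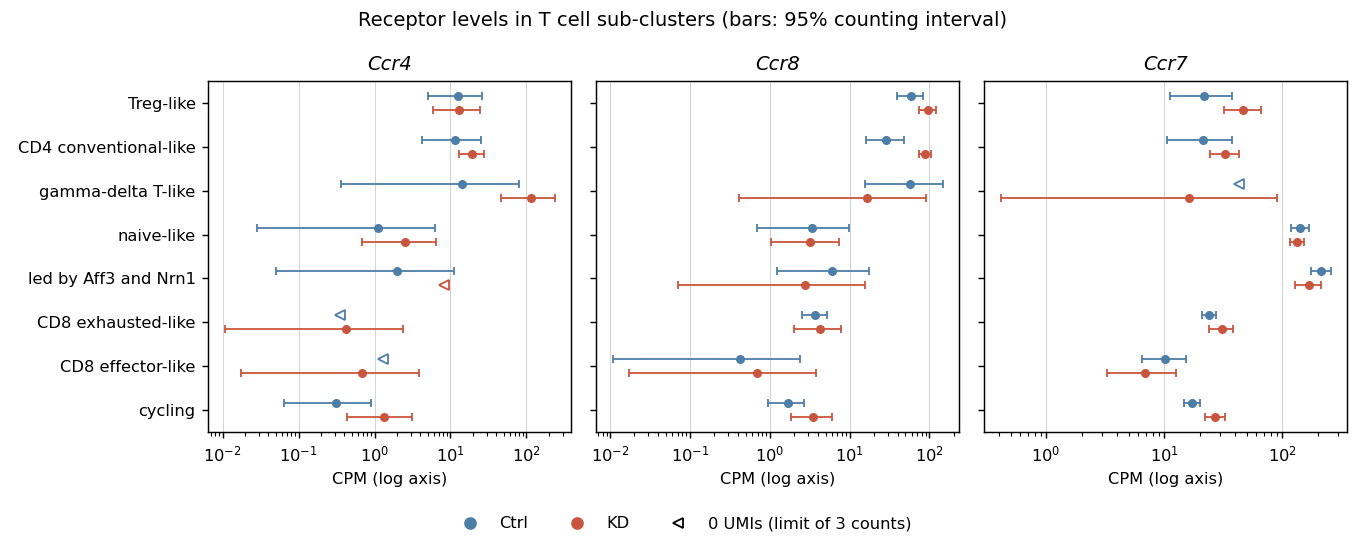
CPM of Ccr4, Ccr8 and Ccr7 on log axes in 8 T cell sub-clusters of the Ctrl and KD libraries, with bars for 95% counting intervals and open triangles at the limit of 3 counts. Ccr8 was highest in Treg-like and CD4 conventional-like cells in KD, at 95.5 and 88.7 CPM, and Ccr7 in naive-like cells and those led by Aff3 and Nrn1.

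Ccr8, the receptor of activated regulatory T cells, was 3.96-fold higher in KD T cells. T cells had 118 Ccr8 UMIs in Ctrl, or 4.52 CPM (3.74 to 5.41), and 238 in KD, or 17.9 CPM (15.7 to 20.3), a log2 ratio of 1.99 (1.66 to 2.32), which ranked 85 of 12967. The T cells with a UMI were 92 of 3487 (2.64%, 2.13% to 3.23%) and 151 of 2137 (7.07%, 6.02% to 8.24%). Thinned, they were 34 of 3264 (1.04%) and 57 of 2049 (2.78%), against 0 of 3801 and 1 of 2882 macrophages, which unthinned were 0 of 4094 and 2 of 2998. The log2 ratio with sub-clusters weighted as in Ctrl was 0.66.

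CD4 conventional-like cells held the largest part of the KD Ccr8 UMIs, 49.6% of the library's total against 11.8% in Ctrl. They had 15 Ccr8 UMIs in Ctrl, or 28.9 CPM (16.2 to 47.7), and 132 in KD, or 88.7 CPM (74.2 to 105), a log2 ratio of 1.62 (0.84 to 2.50). The cells with a UMI were 14 of 128 (10.9%, 6.11% to 17.7%) and 78 of 334 (23.4%, 18.9% to 28.3%), but thinned they were 8.0% and 10.7%. Treg-like cells had 32 UMIs, or 57.9 CPM (39.6 to 81.7), and 67, or 95.5 CPM (74.0 to 121), a log2 ratio of 0.72 (0.09 to 1.38), which was 0.28 (-0.96 to 1.63) after thinning. In Treg-like cells 26.6% (17.3% to 37.7%) and 34.4% (26.1% to 43.6%) had a UMI, and those intervals overlap. In CD8 exhausted-like cells the ratio was 0.20 (-0.99 to 1.26), on 31 and 10 UMIs, and in cycling T cells it was 1.07 (-0.10 to 2.22), on 16 and 13 UMIs. DCs had 0 Ccr8 UMIs in Ctrl and 5 in KD.

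Cd4 and Cd8a, the coreceptors of helper and cytotoxic T cells, were counted in the cells with Ccr8. Among T cells with a Ccr8 UMI, 29 of 92 in Ctrl (31.5%) and 105 of 151 in KD (69.5%) also had a Cd4 UMI, and 41 (44.6%) and 14 (9.27%) had a Cd8a UMI. Over all T cells, the libraries differed the same way, with Cd4 in 196 of 3487 Ctrl and 439 of 2137 KD cells, and Cd8a in 2271 and 873. A Foxp3 UMI was found in 13 of 92 (14.1%) and 22 of 151 (14.6%). Of T cells with Foxp3, 13 of 44 in Ctrl (29.5%) and 22 of 66 in KD (33.3%) had Ccr8. Ccr4 and Ccr8 were seen in the same T cell 2 times in Ctrl and 7 times in KD.

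Ccr7 was shared among B cells, DCs and T cells, and differed in direction between the last pair. In DCs it was at 135 CPM (121 to 149) in Ctrl, on 371 UMIs, and 103 CPM (94.8 to 112) in KD, on 542 UMIs, a log2 ratio of -0.38 (-0.58 to -0.19). It was -0.18 (-0.46 to 0.10) without mature DC-like cells and -0.31 (-0.74 to 0.13) after thinning. Of the 3 members tested in DCs it was the 1 whose interval lay below 0, as did 13.5% of all genes tested. A Ccr7 UMI was found in 80 of 383 Ctrl DCs (20.9%, 16.9% to 25.3%) and 109 of 580 KD DCs (18.8%, 15.7% to 22.2%). Thinned, the shares were 12.5% and 9.98%. Granulocytes, which should lack the gene, had a UMI in 1 of 804 and 12 of 2311 cells at medians of 2168.5 and 2832 UMIs, and thinned in 0 of 680 and 2 of 2102.

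In mature DC-like cells, which use CCR7 to leave the tissue, Ccr7 was at 1305 CPM (1132 to 1497) in Ctrl and 1054 CPM (929 to 1190) in KD. The log2 ratio was -0.31 (-0.58 to -0.04), an interval that 16.4% of the genes tested there also had below 0. With TMM scaling it was -0.16 (-0.43 to 0.11). A Ccr7 UMI was found in 25 of 27 Ctrl and 29 of 33 KD cells. Ccr7 also had lower values in cycling DCs, at -1.80 (-2.62 to -1.02), though 27 of the 44 Ctrl UMIs were in 1 cell and the ratio without the highest cells was -0.93 (-2.03 to 0.16), and in those led by Lpl and C1qa, at -0.99 (-1.85 to -0.12). In cDC2-like cells the ratio was 0.19 (-0.19 to 0.57) and in cDC1-like cells 0.17 (-0.81 to 1.24). Of the mature DC-like cells with Ccr7, 12% in Ctrl and 34.5% in KD had Ccl17, and 40.0% and 55.2% had Ccl22.

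In T cells Ccr7 was at 27.5 CPM (25.5 to 29.5) in Ctrl, on 717 UMIs, and 42.5 CPM (39.1 to 46.2) in KD, on 565 UMIs, a log2 ratio of 0.63 (0.47 to 0.79). All 3 members tested in T cells had intervals above 0, as did 20.1% of all genes tested there. Naive-like cells took 6.08% of the class in Ctrl and 17.5% in KD. Their level was 142 CPM (118 to 169) and 134 CPM (116 to 153), a log2 ratio of -0.08 (-0.41 to 0.25). Without them the ratio over T cells was 0.36 (0.17 to 0.56), and with sub-clusters weighted as in Ctrl it was 0.23. In cycling T cells it was 0.66 (0.29 to 1.03), and in Treg-like cells it was 1.12 (0.12 to 2.20), on 12 and 33 UMIs. It was 0.64 (-0.33 to 1.73) in CD4 conventional-like, 0.35 (-0.06 to 0.74) in CD8 exhausted-like and -0.58 (-1.80 to 0.54) in CD8 effector-like cells. The sub-cluster led by Aff3 and Nrn1 had the highest Ctrl level, 215 CPM, against 168 CPM in KD.

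B cells had the highest Ccr7 level of all classes, 240 CPM (207 to 276) in Ctrl and 262 CPM (242 to 283) in KD, a log2 ratio of 0.13 (-0.10 to 0.37). In macrophages it was at 5.16 CPM (4.33 to 6.11) and 4.29 CPM (3.49 to 5.21), a log2 ratio of -0.27 (-0.65 to 0.11). C1q TAM-like cells were lower in KD, at -1.35 (-2.26 to -0.50), on 35 and 18 UMIs, and Inflammatory TAM-like cells higher, at 0.68 (0.01 to 1.33), on 71 and 29 UMIs. The order of the 3 highest classes in KD, B cells, DCs and the unnamed cluster, held beyond counting error.

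The remaining ligands of the receptors came from other cells. Ccl1, a CCR8 ligand, was a T cell transcript, at 28.6 CPM in Ctrl and 57.4 CPM in KD, a log2 ratio of 1.00 (0.86 to 1.15). CD4 conventional-like cells had the highest Ccl1 level, 412 CPM in Ctrl and 325 CPM in KD. Macrophages had 4 and 63 Ccl1 UMIs, but 59 of the 63 were in 1 cell, in the sub-cluster led by the T cell genes Gzma and Tox. Ccl8, the other CCR8 ligand, was 222 CPM in Ctrl and 65.8 CPM in KD macrophages, and 463 and 123 CPM in C1q TAM-like cells, which held 3401 of the 5793 Ctrl macrophage UMIs. Of the CCR7 ligands, Ccl19 had 31 UMIs in Ctrl, 30 of them in tumor or fibroblast cells and 18 in 1 cell, and 3 in KD, all in tumor or fibroblast cells. Ccl21a, Ccl21b and Ccl21d were at 0 in DCs, macrophages and T cells.

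Among the other CC receptors, 5 of 8 were tested in DCs and 0 reached 2-fold, from Ccr2 at 0.77 (0.59 to 0.95) to Ccr1 at -0.21 (-0.45 to 0.03). In T cells 6 were tested and 1, Ccr6, was past 2-fold, at 1.22 (0.44 to 2.02), with Ccrl2 lowest at -0.41 (-0.55 to -0.28). Of all genes tested in DCs, 1.8% were at least 2-fold higher and 1.07% at least 2-fold lower. In T cells these shares were 3.46% and 1.68%, so counts from so few receptors say little about the list. In the list of atypical receptors and the protease DPP4, Ackr3 was higher in KD macrophages, at 1.95 (1.15 to 2.82), and Dpp4 lower, at -0.55 (-0.76 to -0.34). Of the type 2 lymphocyte genes, 5 of 8 were tested in T cells and 2 were past 2-fold upward, against 3.46% of all genes tested there, with Il4 highest and Areg lowest at 0.09 (-0.05 to 0.23).

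The genes whose levels followed each member most closely were named from Pearson's r of log2(CPM + 1) over 50 profiles, made of 25 cell groups in each library. They are a description, since profiles share libraries, depth and parent classes. For Ccl17 they were Septin3 (r = 0.83), Casr (0.82) and Tmeff1 (0.81), and for Ccl22 they were Tspan33 (0.86), Cst3 (0.84) and Casr (0.83). For Ccr4 they were Sdf4 (0.80), Trat1 (0.78) and Lgals7 (0.78), and for Ccr8 Sdf4 (0.90), Itgb8 (0.89) and Izumo1r (0.88). Sdf4 lies beside Tnfrsf4, so reads of the pair may not be separable. For Ccr7 they were P2ry10 (0.80), Gpr183 (0.79) and Chst10 (0.77).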

How the data were processed

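CD45+ cells of 2 samples, 1 per group, were measured with droplet 3' RNA sequencing. The matrices were deposited as raw UMI counts for each gene in each barcode. Cell Ranger 7.1.0 and GRCm39 are named in the submitters' processing notes. Groups follow the hairpin in the labels.

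The filter kept 19999 of 21359 cells. It required 200 to 6000 genes, no more than 30000 UMIs and a mitochondrial share of 10% or less. Clustering used Seurat 5.3.0 under R 4.3.3 on log-normalized counts, with 2000 variable genes, 20 principal components and resolution 0.5, without integration. Genes named Ccl, Ccr or Ackr were left out of the variable genes. DCs, macrophages, and T and NK cells together were re-clustered. T cells are all T and NK cells outside the NK-like sub-clusters. The clusters depend on the numerical kernel, which was fixed.

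Clusters were named from marker lists: a marker needed a log2 fold of 1 (0.5 in sub-clusters), with 0.1 per 10000 added, in 10% of cells. At least 3 markers were required for a name, which was withheld where the 10 leading genes held more markers of a different class. Clusters whose cells had under 33.3% of the library's median UMIs and no own leading marker stayed unnamed. In sub-clusters a name also needed an own leading marker, and lists of other lineages counted against it. Both of these were set after the clusters were seen. Where names differ from the study's, the rebuilt names may be the reason. The study's limits were the only treatment of doublets; as an alternative, Scrublet (scanpy 1.11.5) marked 786 Ctrl and 844 KD cells.

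UMIs were summed per library and class. Levels have exact Poisson intervals, shares exact Clopper-Pearson intervals, and log2 ratios exact conditional binomial intervals, which cover counting error only. For 0 counts, 3 counts were the limit. On simulated counts for DCs (8989 genes, 200 changed), all 200 came out in the right direction and 95.1% of intervals held the true value. The simulated counts were Poisson draws, the model that the intervals assume, without concentration of UMIs in few cells. They therefore check the calculation and cannot show how the intervals perform on the real counts.

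The members, lists and named-gene rule were chosen with earlier results of these data known. The rule names all 5 members in each class and named sub-cluster, the highest and lowest member of each list with at least 50 UMIs, the other ligands, Ly9, and the 3 genes most like each member (at least 200 UMIs, no CC gene). Neighbours of the ligands, Flt3, Zbtb46, Foxp3, Cd4 and Cd8a, and unnamed sub-clusters, were chosen beside the rule. Promoter windows were matched by symbol for 4 of 5 members. Alternatives were a stricter filter, doublet removal, resolution 1.0, chemokine genes kept, single-cell classes, TMM scaling (edgeR 4.0.16), thinning to 1500 UMIs, a minimum of 20 UMIs, and others added after seeing the data.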

Additional observations from a re-analysis of the deposited data

Results flagged for a closer look

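The Ccr7 log2 ratio, KD over Ctrl, was -0.382 in conventional DCs (-0.58 to -0.19) and 0.631 in T cells (0.47 to 0.79), so the classes lay on opposite sides of 0. With 1 library per group the difference between them was not tested. As given above, the DC interval included 0 after thinning and without mature DC-like cells. The T cell ratio was smaller after thinning, without naive-like cells and with sub-clusters weighted as in Ctrl.

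Within DCs, the Ccl22 log2 ratio was 1.18 in mature DC-like cells (0.71 to 1.67) and -2.23 in cycling DCs (-3.86 to -0.82). This difference was not tested either. The cycling value rests on 17 Ctrl UMIs, 13 of them in 1 cell, and without the highest cell of each library it was -1.75 (-5.22 to 1.05).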

How the results depend on the processing

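No paired analysis was possible because each group had 1 library. Of 164 alternative values for 19 results, 134 stayed within the counting interval of the reported value and 30 did not. The 134 include ratios kept under the UMI minimum listed among the alternatives. That minimum cannot change a ratio, so these repeat the reported value by construction and are no check of it. Among all 164 values, none whose reported interval excluded 0 turned sign, but 14 of them then had an interval that includes 0. Of those whose reported interval included 0, 7 then excluded it, and 6 turned sign, among them Ccl22 in DCs and the mature DC-like share. The others were small ratios of Ccl22 in macrophages and Ccr4 in Treg-like cells. The other numerical kernel, leaving out a sub-cluster or the highest cells, and weighting were chosen after seeing the data. Causes of these moves were not tested, except that leaving out or weighting sub-clusters acts by its construction.

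Ccl17 in DCs (1.43) was 2.19 without likely doublets, which took Ctrl UMIs from 141 to 85, 1.76 at resolution 1.0, 1.74 with the other kernel, 2.24 with single-cell classes and 1.03 without mature DC-like cells. Without the latter Ccl22 was -0.26 and Ccr7 -0.18. In mature DC-like cells Ccl17 (4.0) was 2.70 with the stricter filter, 2.91 without doublets, 2.79 at resolution 1.0, 2.74 with chemokine genes kept or the other kernel, and 1.56 with single-cell classes, where Ccl22 was 0.26.

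In macrophages Ccl17 was 1.96 with single-cell classes, which moved 136 cells of the DC clusters into that class, and Ccl22 was 0.98 when thinned. In T cells, thinning gave 1.45 for Ccr8 and 0.39 for Ccr7, weighting gave 1.33 for Ccr4, 0.66 for Ccr8 and 0.23 for Ccr7, and Ccr7 was 0.36 without naive-like cells. With single-cell classes the KD minus Ctrl share, in points, was 2.64 for mature DC-like cells (-1.36 from clusters) and 1.85 for Treg-like cells. The DC share of Ccl17 UMIs in Ctrl was 69.8% at resolution 1.0 and with the other kernel, and with single-cell classes it was 40.3% in Ctrl and 69.1% in KD, and that of Ccl22 48.6% and 62.8%. The minimum of 20 UMIs left no value for Ccl17 in macrophages and mature DC-like cells or Ccr4 in T cells and Treg-like cells.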

Other observations

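Some members had UMIs in classes outside the comparisons above. Kupffer cells, the resident liver macrophages, had 0 Ccl17 UMIs in 50 Ctrl cells and 4 in 83 KD cells, each in a separate cell. Ccr7 in plasmacytoid DCs had 9 UMIs in 82 Ctrl cells and 0 in 72 KD cells, which allows up to 6.70 CPM. The unnamed cluster, in which genes of NK, T and B cells lead, had 34 Ccr7 UMIs in Ctrl and 102 in KD, 20.4 and 62.9 CPM. Endothelial cells had 8 Ccl22 UMIs in Ctrl, 7 of them in 1 cell, and 3 in KD.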
